A study of Mus musculus with 5 samples.

Results

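Secreted suppressive and repair factors of regulatory T cells (Tregs) were examined in 6 genes, Il10, Ebi3, Il12a, Fgl2, Areg and Penk, taken by gene symbol from the 24084 genes of the count table. All 6 symbols were found. Tregs are CD4 T cells that express the transcription factor Foxp3 and restrain immune responses. RNA was sequenced from Tregs of the skin (2 libraries) and of skin-draining lymph nodes (3 libraries), in mice aged 13 days. Both groups came from the same strain, written as Foxp3-DTR in the sample labels and Foxp3-DTR/GFP in the study's design text, in which Foxp3 regulatory sequence drives both green fluorescent protein and a receptor for diphtheria toxin. No toxin or other treatment is named for either group, and the sources used here do not give the sort markers or the animals behind a library. Where libraries do not stand for separate animals, p-values measure technical spread in part.

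Tregs act on neighboring cells through contact and through what they release. Interleukin 10 (Il10) is a cytokine that dampens macrophages and dendritic cells. Interleukin 35 is a heterodimer of the products of Ebi3 and Il12a, and each chain also pairs elsewhere: Ebi3 with Il27 in interleukin 27, and Il12a with Il12b in interleukin 12. Fgl2 encodes a fibrinogen-like protein whose secreted form acts through Fc gamma receptors. Areg encodes amphiregulin, a ligand of the epidermal growth factor (EGF) receptor by which tissue Tregs promote repair, and Penk encodes the precursor of the enkephalins, the endogenous opioid peptides. In skin, tissue Tregs are known for roles in wound repair and in tolerance.

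Gene counts ranged from 10468795 to 10787378 in the skin libraries and from 12305644 to 14595018 in the lymph node libraries, and 9192 to 9894 genes were detected in skin libraries against 12173 to 12540 in lymph node libraries. Levels are given as CPM, counts scaled to a common library total after TMM, a normalization that assumes most genes do not differ. Among the 6660 genes whose lymph node mean reached 20 CPM, 8.80% were below 1 CPM in skin library 1, and 16.1% in library 2. Across all 11437 genes tested, edgeR's quasi-likelihood test with Benjamini-Hochberg adjustment called 881 (7.70%), of which 275 were higher in skin (2.40%) and 606 lower (5.30%), at an adjusted p under 0.05. Foxp3 itself was at 78.0 and 118 CPM in the skin libraries, against 89.6, 95.01 and 99.8 CPM in the lymph node libraries. The skin libraries also held macrophage genes: the summed level of 14 macrophage and monocyte markers was 1392 to 2079 CPM in skin and 12.9 to 27.2 CPM in lymph node.

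Il10, Fgl2 and Areg RNA was higher in the skin Treg libraries than in the lymph node Treg libraries. Dropping any 1 lymph node library ended all 3 calls (edgeR adjusted p 0.113 to 0.116). Ebi3 and Penk were also at higher values in every skin library, but neither passed the threshold, and Il12a had no count in any library. Among the 5 genes tested, 3 were called higher and 0 lower. Background rates were 2.40% and 5.30% of all genes tested. Areg reached the test through its skin counts alone, since 0 of 3 lymph node libraries met the filter of 0.813 CPM, so it could hardly have been tested without differing. Both skin libraries exceeded each lymph node library for the 5 tested genes, which held for 16.8% of all genes tested. In these bulk libraries, fewer cells of a type and less RNA per cell cannot be told apart.

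**Figure D1:**
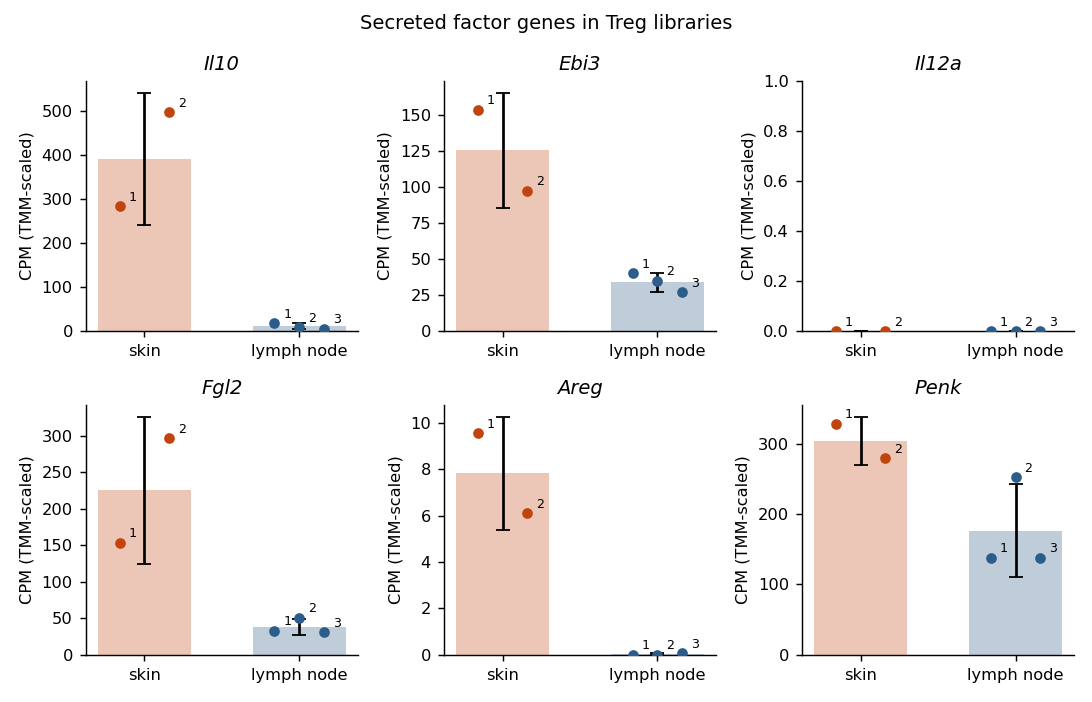
Level of each gene in CPM (vertical axis, from 0, own scale per panel) in skin and lymph node Treg libraries. Bars are means, error bars are SD, points are libraries with their replicate number (2 skin, 3 lymph node). Skin points lie above lymph node points for Il10, Ebi3, Fgl2, Areg and Penk, and Il12a is at 0 throughout.

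Il10 (chromosome 1, 131019845 to 131024974, plus strand, mm10) was far higher in the skin Treg libraries than in the lymph node Treg libraries. It was at 284 and 496 CPM in the skin libraries (3033 and 4969 counts), against 18.4, 8.62 and 5.78 CPM in the lymph node libraries (262, 110 and 85 counts). The lower skin library was 15.4-fold above the highest lymph node library. Means were 390.0 ± 150.15 CPM in skin (SD, n = 2) and 10.9 ± 6.62 CPM in lymph node (SD, n = 3). The log2 fold change was 5.16 (SE 0.63), a 35.6-fold difference with a 95% interval of 11.9 to 106 (edgeR adjusted p = 0.0340). Within the groups, skin library 2 and lymph node library 1 held the higher values.

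Il10 sits in a cluster with related cytokine genes, whose counts are given here. Il19, 79730 bases away, and Il20, 108394 bases away, had no count in any library. Il24, 132391 bases away, had 1 count, in lymph node library 2. On the other side Mapkapk2, 28726 bases away, which encodes a stress kinase, had 199 and 1180 counts in skin and 510, 287 and 631 counts in lymph node (log2 fold change 1.02, edgeR adjusted p = 0.516). Of 8 protein-coding neighbors in the table within 200 kb of Il10, only 3 (Mapkapk2, Eif2d and Rassf5) had counts enough to be tested, and 0 of these were called.

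Ebi3 carried counts in every library, while the genes of its partner chains in interleukins 35 and 27 did not. It was at 154 and 97.6 CPM in skin, against 40.2, 35.1 and 26.9 CPM in lymph node. The skin libraries lay above all lymph node libraries, the lower of them by 2.43-fold. The means of 126 ± 39.8 CPM in skin (SD, n = 2) and 34.1 ± 6.70 CPM in lymph node (SD, n = 3) gave a log2 fold change of 1.88 (SE 0.45), or 3.69-fold with a 95% interval of 1.68 to 8.11. The unadjusted p was 0.00733 and the edgeR adjusted p 0.0589, short of the threshold. Ebi3 (chromosome 17, 55952640 to 55957022, plus strand) shares 270 of its 1154 exon bases with Gm16712 on the other strand, which had 0 counts in both skin libraries and 42, 88 and 20 in lymph node. No source used here says whether counting used the strand, so reads of the shared bases cannot be told apart between these genes.

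Il12a (chromosome 3, 68690644 to 68698547), the gene of the interleukin 35 partner chain, had 0 counts in all 5 libraries. With no count seen, a level of up to 0.145 CPM in the skin libraries and 0.0719 CPM in the lymph node libraries remains possible, the worth of 3 counts in each group. Il27, the other known partner of Ebi3, also had no count in any library. The same held for Il12b and Il23a, which encode further chains of the interleukin 12 family. These floors cover counting error only, not transcripts lost before sequencing.

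Fgl2 followed Il10 in its order across the skin libraries. Its level was 154 and 297 CPM in the skin libraries, against 33.1, 51.0 and 31.4 CPM in the lymph node libraries. The groups did not overlap, with 3.02-fold between the lower skin library and the highest lymph node library. Means of 225 ± 101 CPM in skin (SD, n = 2) and 38.5 ± 10.8 CPM in lymph node (SD, n = 3) gave a log2 fold change of 2.55 (SE 0.45), or 5.85-fold with a 95% interval of 2.69 to 12.7 (edgeR adjusted p = 0.0460). Fgl2 (chromosome 5, 21372642 to 21378374, plus strand) lies inside Ccdc146, on the opposite strand. They share 0 exon bases, and Ccdc146 itself had 21 and 0 counts in skin and 4, 12 and 9 in lymph node.

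Areg was nearly confined to the skin libraries, at a low level. It had 102 and 61 counts in skin, which is 9.55 and 6.09 CPM, against 0, 0 and 1 counts in lymph node. The ratio of skin to lymph node, 163 counts against 1, was 328 with an exact 95% interval for counting error of 58.1 to 13053. The edgeR log2 fold change was 7.87 (SE 1.55, adjusted p = 0.0488), a value that depends on the prior count because lymph node counts were near 0. It stands for 234-fold with a 95% interval of 15.9 to 3435. That interval takes in spread between libraries, which the interval for counting error leaves out. Areg (chromosome 5, 91139599 to 91148432, plus strand) neighbors the genes of related EGF receptor ligands. Ereg, 45953 bases away, and Epgn, 104384 bases away, had no count in any library.

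Because Areg and Fgl2 were both called, the 250 bases before their RefSeq start sites (GRCm38.p6, plus strand) are shown, in lower case with matches to cAMP element and AP-1 motifs in capitals. Windows were read for Areg, Fgl2, Ebi3 and Il12a, while those of Il10 and Penk were not analysed here. Areg is at chr5:91139349-91139598 and Fgl2 at chr5:21372423-21372672.
Areg: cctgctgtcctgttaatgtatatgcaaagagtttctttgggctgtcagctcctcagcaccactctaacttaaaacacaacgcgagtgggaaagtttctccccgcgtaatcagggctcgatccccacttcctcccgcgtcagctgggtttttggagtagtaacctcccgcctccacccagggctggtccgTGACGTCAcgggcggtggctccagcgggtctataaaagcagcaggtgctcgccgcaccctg
Fgl2: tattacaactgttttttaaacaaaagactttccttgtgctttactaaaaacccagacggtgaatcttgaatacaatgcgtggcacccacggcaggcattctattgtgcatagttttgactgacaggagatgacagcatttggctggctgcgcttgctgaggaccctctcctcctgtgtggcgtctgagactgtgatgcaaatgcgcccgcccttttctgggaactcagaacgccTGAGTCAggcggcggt
The capitals in Areg mark TGACGTCA, the full cAMP response element, which begins 61 bases before the start site. Those in Fgl2 mark TGAGTCA, a match to the AP-1 motif TGANTCA that begins 16 bases before its RefSeq start site. The gene start given above for Fgl2, 21372642, comes from another annotation and lies ahead of this match. By that start the match is inside the gene and not upstream of it. Searched on both strands in windows of 300 bases (250 before to 50 after each start), TGACGTCA occurred in 1.79% and TGANTCA in 7.81% of 32851 RefSeq promoter windows. TGCGTCA, a variant cAMP element, occurred in 2.12% of windows and in none of the members' windows, and TGGAAA, a core bound by NFAT factors, in 21.4% and also in none. The Maf core TGCTGA, found in 19.5% of windows, had 1 match each in Areg and Fgl2. These lie 198 and 97 bases before the start sites and are left in lower case. Ebi3 (1 window) and Il12a (2 windows) held none of the 5 motifs. A match is a description of these letters and not a measure of binding.

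Penk was abundant in both sources, and the difference between them was within what the test could not separate from spread. It was at 328 and 279.6 CPM in the skin libraries (3507 and 2800 counts), against 138, 252 and 138 CPM in the lymph node libraries (1962, 3220 and 2032 counts). Lymph node library 2 came close to the skin libraries, and the lower skin library was only 1.11-fold above it. Means of 304 ± 34.4 CPM in skin (SD, n = 2) and 176 ± 66.1 CPM in lymph node (SD, n = 3) gave a log2 fold change of 0.79 (SE 0.36), or 1.73-fold with a 95% interval of 0.926 to 3.22 (edgeR adjusted p = 0.222). The interval includes no difference. Penk (chromosome 4, 4133531 to 4138819, minus strand) shares 233 of its 1634 exon bases with A830012C17Rik on the other strand.

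**Figure D2:**
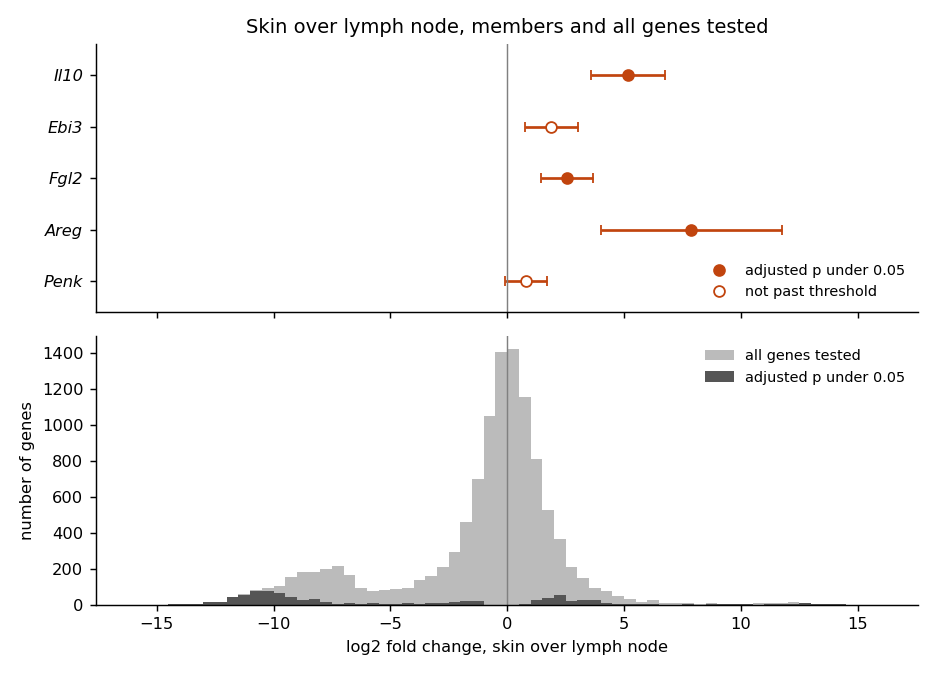
Upper panel: edgeR log2 fold change of skin over lymph node with its 95% interval for the 5 genes tested, filled where the adjusted p is under 0.05. Lower panel: number of genes per fold change, in light gray for all 11437 tested and in dark gray for those called. Il10, Fgl2 and Areg are filled, and only the interval of Penk reaches 0.

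The order of the genes by level differed between the tissues. Levels of different genes are compared here as CPM per kb of exon length. In the skin libraries Il10 came first at 217 to 379 CPM per kb, above Penk at 171 to 201. Then came Ebi3 at 84.5 to 133, Fgl2 at 40.6 to 78.3 and Areg at 5.01 to 7.86 CPM per kb. No neighbors in that order overlapped across the 2 skin libraries. In the lymph node libraries Penk led at 84.3 to 154 CPM per kb, above Ebi3 at 23.3 to 34.8 CPM per kb. Fgl2 at 8.29 to 13.5 and Il10 at 4.41 to 14.0 CPM per kb overlapped and cannot be ordered there. Il10 ranked above 98.3% and 99.0% of detected genes in the skin libraries by this measure, but above 71.4, 54.8 and 46.4% in lymph node libraries 1 to 3. Penk ranked above 97.1 to 98.1% of detected genes in skin and 94.3 to 97.9% in lymph node.

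Taking the 6 genes as a pool of RNA shows the same shift in make-up. Their summed level was 929 and 1176 CPM in the skin libraries, against 229, 347 and 202 CPM in the lymph node libraries. Il10 made up 30.6% and 42.2% of that sum in skin, and 8.02, 2.48 and 2.86% in lymph node. Penk made up 35.3% and 23.8% in skin, and 60.1, 72.7 and 68.3% in lymph node. The share of Ebi3 overlapped between the tissues, at 8.30 to 16.6% in skin and 10.1 to 17.5% in lymph node. That of Fgl2 was 16.54 to 25.2% in skin and 14.4 to 15.5% in lymph node, with no overlap.

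The 2 skin libraries split the genes into those higher in library 2 and those higher in library 1. Il10 was 1.75-fold and Fgl2 1.93-fold higher in skin library 2 than in library 1. Ebi3 was 1.58-fold, Areg 1.57-fold and Penk 1.17-fold higher in library 1 than in library 2. The summed macrophage and monocyte markers were 1.49-fold higher in library 2, with Cd163 at 25.5 and 157 CPM and Mrc1 at 362 and 137.5 CPM in skin libraries 1 and 2. Macrophages can express Il10 and Fgl2, and the part of these cells in either result was not tested.

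Markers of other cells were read by list. Of 14 macrophage and monocyte markers in the table, 10 were tested, 4 higher and 0 lower. Of those called, Cd163, Mrc1 and C1qb were at or near 0 in lymph node and reached the test through their skin values. They could hardly have been tested without being higher in skin. C1qb, a complement gene of tissue macrophages, was at 219 and 561 CPM in skin and at most 1.83 CPM in lymph node, and Lyz2 was at 377 and 447 CPM in skin and 4.94 to 11.03 CPM in lymph node. Cd14, Cd163, Fcgr1 and Cd209f had no count in lymph node, and none of the 14 was at 0 in both skin libraries. Dendritic and Langerhans cell markers summed to 185 to 299 CPM in skin and 6.59 to 14.3 CPM in lymph node (1 of 5 tested higher, Cd209a, at 100.3 and 153 CPM in skin and 0 in lymph node; Epcam at 29.4 and 82.9 CPM in skin and 2.65 to 10.4 CPM in lymph node). Of the other defining genes, Xcr1 was at 51.0 and 10.7 CPM in skin and 0 to 2.25 CPM in lymph node, and Flt3 at 3.84 and 52.5 CPM in skin and 0 to 0.157 CPM in lymph node, neither past the threshold. Itgax, Clec9a, Cd207, Batf3 and Ccl17 were at 0 in all libraries.

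Keratinocytes, mast cells and innate lymphoid cells are further known sources of amphiregulin. Keratinocyte markers summed to 149 to 151 CPM in skin and 4.39 to 5.98 CPM in lymph node, with Krt14 the 1 called of 5 tested (68.9 and 109.5 CPM in skin, 0 in lymph node) and Krt17 at 45.2 and 33.3 CPM in skin and 0 to 3.13 CPM in lymph node. Krt10 had no count in skin and 2.32 to 4.31 CPM in lymph node, Krt1 had none in any library, and Krt5, Trp63 and Perp were at most 1.40 CPM in skin. Krt14 and Cd209a, with no count in lymph node, reached the test through their skin values alone. Mast cell and basophil markers summed to 12.8 and 0 CPM in skin and 15.3 to 26.4 CPM in lymph node. In the skin libraries 9 of their 10 genes had no count, Cpa3, Mcpt4, Tpsb2 and Fcer1a among them, and only Kit did. Markers of group 2 innate lymphoid cells summed to 2224 to 2706 CPM in skin and 314 to 420 CPM in lymph node (3 higher and 0 lower of 5 tested). The 3 called were Klrg1 (1584 and 1166 CPM in skin, 102 to 175 CPM in lymph node), Gata3 (values with the regulators of Il10) and Rora (538 and 399 CPM in skin, 28.2 to 77.1 CPM in lymph node), all of which Tregs also express. Il13, Il5 and Calca had no count in any library, and Nmur1 and Arg1 none in skin. What part keratinocytes or innate lymphoid cells have in the Areg counts was not tested.

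Fibroblasts can express Penk, and B and plasma cells Ebi3. Fibroblast markers summed to 2.20 to 4.96 CPM in skin and 5.50 to 10.5 CPM in lymph node (0 of 1 tested called), with Col1a1 at 3.56 and 0 CPM in skin and 0 to 0.235 CPM in lymph node. The lymph node sum was mostly Dpt (0.187 and 0.2996 CPM in skin, 4.78 to 10.1 CPM in lymph node), while Dcn, at 0.562 and 1.198 CPM in skin and 0.0784 to 0.204 CPM in lymph node, lay the other way. The part of fibroblasts in the Penk counts was not tested. B and plasma cell markers summed to 22.1 and 72.3 CPM in skin, all of it Cd79b, and 79.3 to 214 CPM in lymph node (0 of 3 tested called), and their part in the Ebi3 counts was not tested. Endothelial markers summed to 2.90 to 69.0 CPM in skin and 353 to 500 CPM in lymph node (0 of 1 tested called), nearly all of it Pecam1, at 55.9 and 2.90 CPM in skin and 352 to 500 CPM in lymph node. Natural killer and CD8 T cell markers summed to 22.2 and 0 CPM in skin and 44.5 to 69.5 CPM in lymph node (Cd8a lower, 1 of 3 tested). Cd8a, with no count in skin, reached the test through its lymph node values alone. Melanocyte and Schwann cell markers summed to 9.17 and 0 CPM in skin and 22.4 to 41.6 CPM in lymph node (0 of 2 tested called). Treg markers summed to 12335 and 15034 CPM in skin and 10475 to 12145 CPM in lymph node, with Ctla4 and Ikzf2 higher among 10 tested and 0 lower. Of the 10, 3 had both skin values above every lymph node value, and 4 (Cd4, Cd3e, Cd3g and Ikzf4) had both below. Shares over all genes tested were 16.8% and 33.5%. Cd3e was at 1059 and 1233 CPM in skin and 1802 to 2291 CPM in lymph node (edgeR adjusted p = 0.0545).

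**Figure D3:**
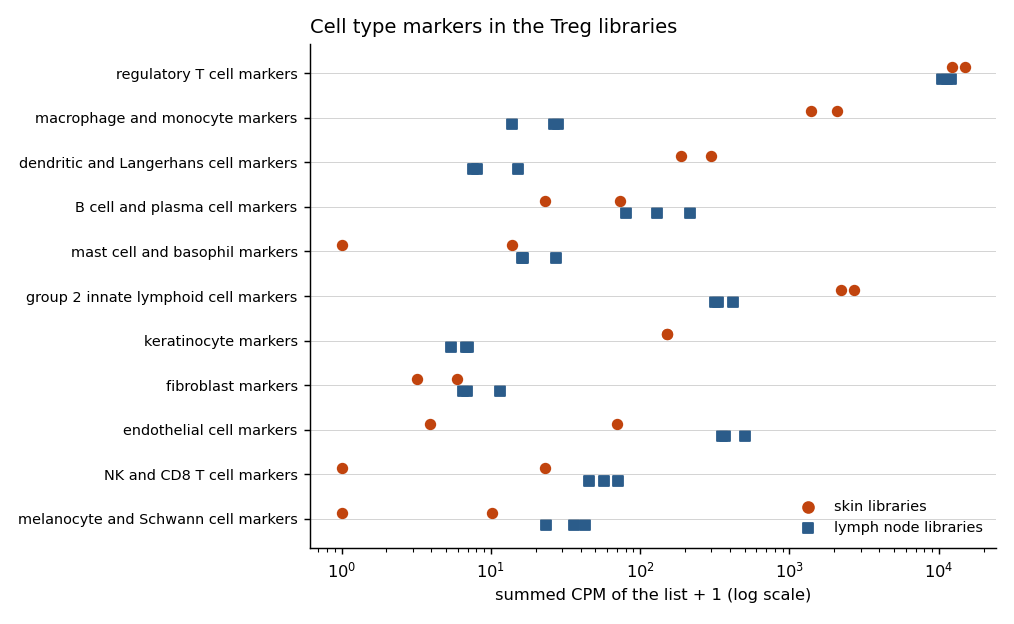
Summed CPM plus 1 of each cell type marker list (horizontal axis, log scale), with skin libraries as circles and lymph node libraries as squares. Macrophage, dendritic, keratinocyte and group 2 innate lymphoid sums are higher in skin libraries, and Treg marker sums are at 10475 CPM or more in both tissues.

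Genes that act with the secreted factors were grouped by role. None of the 7 genes of interleukin 10 reception and signaling was called, with a median log2 fold change of 0.18 against -0.21 over all genes tested. Jak1, the kinase bound to the receptor, was at 736 and 642 CPM in skin, against 625, 651 and 548 CPM in lymph node (edgeR adjusted p = 0.594), and the receptor chain Il10rb at 114 and 1.60 CPM in skin, against 176, 134 and 161 CPM in lymph node (edgeR adjusted p = 0.586). Il10ra, the ligand-binding chain, was at 262 and 99.5 CPM in skin, against 93.5, 110 and 98.0 CPM in lymph node, so that skin library 2 lay within the lymph node range.

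Among 10 transcriptional regulators of Il10 in T cells, 2 were called higher in skin and 0 lower, with a median log2 fold change of 1.57. Shares over all genes tested were 2.40% and 5.30%. Fold changes were positive for 8, while Irf4 (-0.90 on the log2 scale) and Ets1 (-0.75) went the other way, neither past the threshold. The summed level of the list in skin was 0.992-fold that in lymph node. Maf, which binds and activates Il10, was at 452 and 339 CPM in skin, against 112, 65.7 and 104 CPM in lymph node (log2 fold change 2.07, SE 0.33, edgeR adjusted p = 0.0440). Gata3, a factor of type 2 responses and of tissue Tregs, was at 385 and 631 CPM in skin, against 141, 129 and 149.7 CPM in lymph node (log2 fold change 1.86, SE 0.28, edgeR adjusted p = 0.0421). Prdm1 (Blimp-1), a regulator of effector Tregs, was at 69.3 and 206 CPM in skin, against 15.03, 33.9 and 11.6 CPM in lymph node (edgeR adjusted p = 0.0721). Prdm1 and Gata3 were higher in skin library 2 and Maf in library 1, whereas Il10 was higher in library 2.

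None of the 6 tested genes of the interleukin 12 family chains and receptors was called, and the other 4 had no count. Their median log2 fold change was -1.01. Il27ra, the receptor chain for interleukin 27, was at 219 and 357 CPM in skin, against 397, 452 and 528 CPM in lymph node (edgeR adjusted p = 0.208). Its skin values lay below each lymph node value, as did those of 33.5% of all genes tested.

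Among EGF family ligands, few besides Areg had counts in the skin libraries. Tgfa, Ereg, Epgn and Nrg1 had no count in any library, Egf and Btc none in skin, and Hbegf 2 counts in skin library 1 and none in library 2. Of 15 ligand, receptor and sheddase genes 7 were tested and 0 called, with a median log2 fold change of -0.98. Adam10 was at 54.8 and 339 CPM in skin, against 160, 189 and 152 CPM in lymph node, and Adam17, which cleaves amphiregulin from the cell surface, was at 42.7 and 54.5 CPM in skin, against 96.7, 138 and 96.1 CPM in lymph node (edgeR adjusted p = 0.878 and 0.124). Transcripts of the receptor Egfr amounted to 1 count, in skin library 1.

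All 3 receptor genes for Fgl2 had higher values in both skin libraries, and none passed the threshold. Each reached the test through its skin values, so its direction was largely set by the filter. Fcgr3 was at 68.4 and 146 CPM in skin, against 0, 1.10 and 0.136 CPM in lymph node (edgeR adjusted p = 0.0536), and Pirb at 59.1 and 58.9 CPM in skin, against 0, 0 and 2.17 CPM in lymph node (edgeR adjusted p = 0.148). Their median log2 fold change was 6.32. These are receptors of myeloid cells, whose markers were higher in the same libraries, and their part in these values was not tested.

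Of 14 genes for opioid precursors, processing and receptors, 4 were tested and 1 was called, with a median log2 fold change of -0.30. Pcsk1 encodes a convertase that cuts prohormones including proenkephalin. It was at 24.4 and 81.3 CPM in skin and had no count in lymph node (edgeR adjusted p = 0.0482). Its skin mean was 735-fold the floor of 3 counts over the lymph node group. That ratio allows for counting error in lymph node only and leaves out spread between libraries. The edgeR interval for Pcsk1, which takes in that spread, began at 202-fold. Like Areg, Pcsk1 reached the test through its skin values alone. Pcsk2, the second prohormone convertase, had no count in any library, and Cpe, which trims the peptides, was at 1.78 and 0 CPM in skin, against 2.04, 3.61 and 9.65 CPM in lymph node. Ctsl, also of this list, lay the other way from Pcsk1, with 0 and 1 counts in skin and 297, 103 and 331 in lymph node. It did not pass (edgeR adjusted p = 0.0508) and reached the test through its lymph node values alone. Furin overlapped, at 80.3 and 8.79 CPM in skin, against 8.85, 13.0 and 13.7 CPM in lymph node. Of the opioid receptors, Oprd1 and Oprk1 had no count, and Oprm1 none in skin and 0.492, 0.157 and 0 CPM in lymph node.

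The list of alarmin and stimulus receptors that feed Areg and Il10 also holds the ligand genes Il18 and Il33. Of its 8 tested genes, 1 was called higher and 0 lower, with a median log2 fold change of 0.53. Shares over all genes tested were 2.40% and 5.30%. Il18rap, a chain of the interleukin 18 receptor, was at 104 and 270.2 CPM in skin, against 11.2, 16.3 and 11.8 CPM in lymph node (log2 fold change 3.83, SE 0.56, edgeR adjusted p = 0.0411). Il1rl1, the interleukin 33 receptor, was at 199 and 28.2 CPM in skin, against 27.2, 14.2 and 31.7 CPM in lymph node, and the groups overlapped. Areg too was higher in skin library 1, but by 1.57-fold only.

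Few other cytokine genes were counted. Of 25 other secreted factors of T cells, 12 were tested, 2 higher and 2 lower, with a median log2 fold change of -0.30. Il5, Il9, Il13, Il17a, Il21, Il22 and Csf2 had no count in any library, and Il2, Il4, Il6, Il17f and Ifng none in skin. Lgals3 (galectin 3) was at 342 and 662 CPM in skin, against 37.2, 25.2 and 23.1 CPM in lymph node (log2 fold change 4.14, SE 0.42, edgeR adjusted p = 0.0253). Lgals9 (galectin 9) fell by 2.63 on the log2 scale (SE 0.22), at 149.8 and 161 CPM in skin, against 1018, 830 and 1039 CPM in lymph node (edgeR adjusted p = 0.0220). Lta, the lymphotoxin gene, also fell by 2.47 on the log2 scale (SE 0.31), at 42.4 and 63.2 CPM in skin, against 295, 279 and 304 CPM in lymph node (edgeR adjusted p = 0.0352). Macrophages express Lgals3 strongly.

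Of 14 other tissue repair factors, 7 were tested, 1 higher and 0 lower, with a median log2 fold change of 3.12. Tff1, a trefoil peptide of mucosal repair, was at 7.86 and 24.2 CPM in skin, against 0.351, 0.157 and 0.408 CPM in lymph node (log2 fold change 5.66, SE 1.14, edgeR adjusted p = 0.0494). Its lymph node values lay under the filter, so it too reached the test through skin alone. The growth factor Igf1, which macrophages also make, was at 74.3 and 103 CPM in skin, against 0, 0.627 and 0 CPM in lymph node, and did not pass (edgeR adjusted p = 0.0570).

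Of 10 contact-dependent suppressive molecules, 3 rose and 1 fell, with a median log2 fold change of 1.18. Gzmb (granzyme B) was at 1431 and 1763 CPM in skin, against 50.2, 40.3 and 51.3 CPM in lymph node (log2 fold change 5.08, SE 0.23, edgeR adjusted p = 0.0124). Its fold change was close in size to that of Il10, with a smaller error. Tigit and Ctla4, inhibitory receptors, rose by log2 fold changes of 2.20 and 1.74 (SE 0.19 each; edgeR adjusted p = 0.0224 and 0.0271). Nrp1 was the gene that fell.

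**Figure D4:**
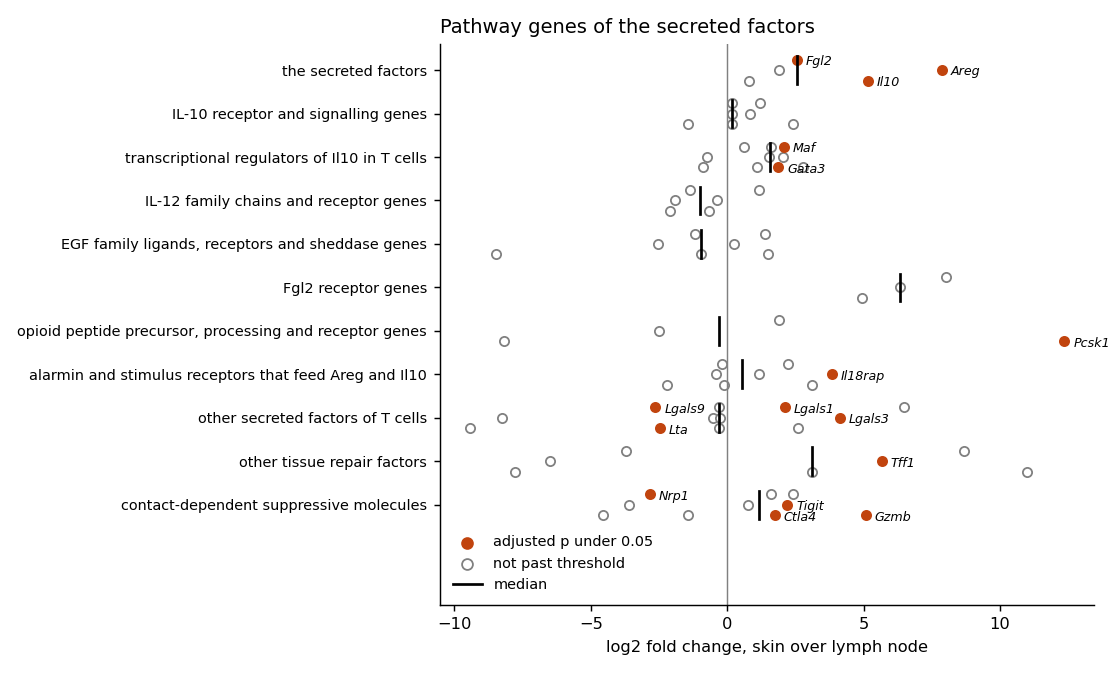
Log2 fold change of skin over lymph node (horizontal axis) for each tested gene of the secreted factors and of 10 pathway lists, filled and named where the edgeR adjusted p is under 0.05, with list medians as black bars. The secreted factors all lie right of 0, and Lgals9, Lta and Nrp1 are the named genes left of it.

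Genes with the most similar profiles were taken as the 3 nearest to each tested member by the root mean square distance of log2 CPM over the 5 libraries, each gene centered on its mean, among 7223 candidates (7224 for Areg, which is itself below the level set for candidates). For Il10 these were S100a3, Sult1a1 and Itpripl2, at 0.465 to 0.529 log2 units. Ebi3 had close matches in Cpd at 0.0727 and Eaf1 at 0.1004. Nearest to Areg stood Gzmb, Lyz2 and Havcr2, at 0.377 to 0.473, and to Fgl2 stood Atp10a, Zfp429 and Elmsan1, at 0.109 to 0.178. For Areg, with 0, 0 and 1 counts in lymph node, the lymph node part of the profile was largely set by the prior count of 2. Its edgeR log2 fold change was 7.87, against 5.08 for Gzmb, 5.58 for Lyz2 and 4.74 for Havcr2. Penk was matched by Trp53inp1, Mapkapk3 and Eif4g1 at 0.111 to 0.124. With 5 libraries in 2 tissues many genes share any such profile, so the distances describe likeness only.

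The called genes kept a positive fold change under every alternative run, but not their calls. Leaving out any 1 of the 3 lymph node libraries ended the calls of Il10 (edgeR adjusted p 0.113 to 0.115), Fgl2 (0.113 to 0.115) and Areg (0.113 to 0.116). In these fits edgeR called 0 of all genes tested, with 2361 to 2485 at an unadjusted p under 0.05. Over the fits that left out 1 library of either tissue, log2 fold changes ranged from 4.69 to 5.76 for Il10, 1.99 to 2.94 for Fgl2 and 7.43 to 9.55 for Areg, whose value was highest without lymph node library 3, the library with its lone lymph node count. DESeq2 called Il10, Fgl2, Areg and Ebi3 (adjusted p = 2.61e-10, 0.000112, 8.53e-06 and 0.000182). The shares of all genes called higher in skin were 9.23% by DESeq2 and 4.95% by limma-voom. In edgeR they were 2.64% with DESeq2 size factors, 2.27% unscaled, 0.954% with no low-count filter, 4.27% with a stricter one, 0.0962% with the replicate block, 16.9% without skin library 1, 14.4% without skin library 2 and 0.00% without any 1 lymph node library.

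**Figure D5:**
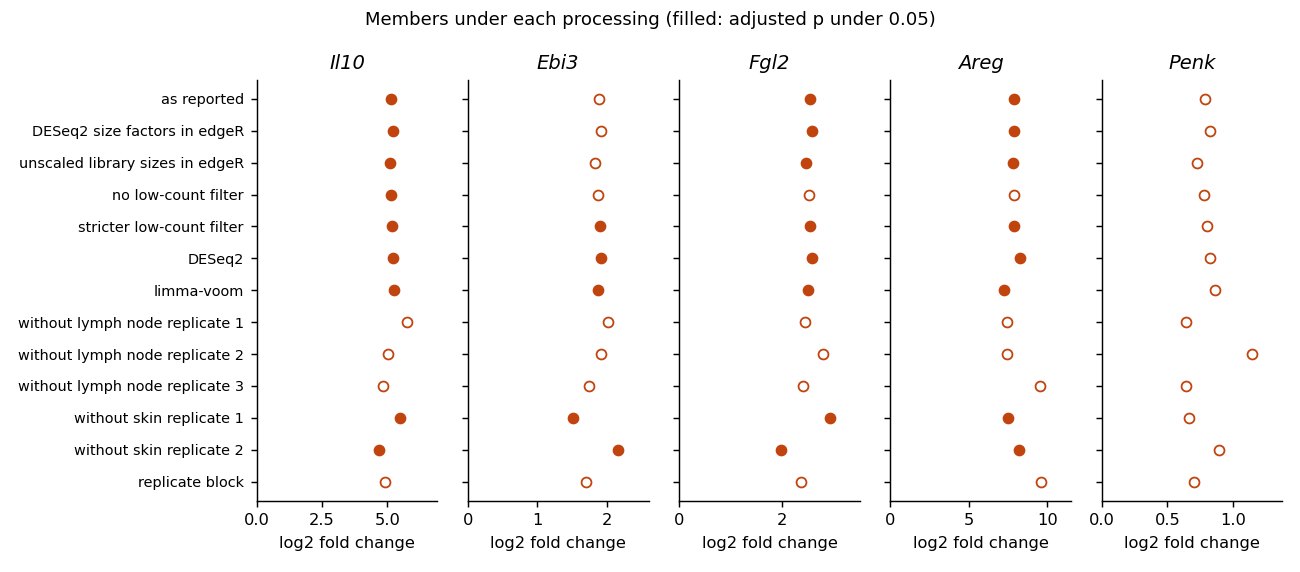
Log2 fold change of skin over lymph node (horizontal axes, from 0, own scale per gene) for the 5 tested genes under the processing as reported and 12 alternatives (rows), filled where the adjusted p is under 0.05. All points lie right of 0, and none is filled in the rows without a lymph node library or with the replicate block.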

How the data were processed

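The tools named in the submitters' processing notes are HTSeq 0.6.1, TopHat2 2.0.12, SAMtools 0.1.19.0, CASAVA 1.8.2 and Bowtie2 2.1.0.0, with mm10 as the build. Sources used here give no options or strand setting. Per the labels' protocols, RNA of sorted, frozen cells was column-purified and made into cDNA with a SMARTer ultra-low-input kit, which amplifies by PCR, so counts are not independent molecules. The authors deposited raw counts, 1 whole number for each gene symbol and library. Its header was read as shifted by 1 cell. Its 5 HTSeq summary lines stayed out of all sums: not uniquely aligned 64.5 to 72.0%, outside genes 8.35 to 14.0%, ambiguous 0.400 to 0.433% of all counts.

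Counts were fitted with edgeR 4.0.16 in R 4.3.3 (filterByExpr minimum count 10, TMM, quasi-likelihood F test, Benjamini-Hochberg over 11437 genes, threshold 0.05). The SE is the size of the log2 fold change over the square root of F. Intervals are 95%. Exact permutation of 2 against 3 libraries cannot go below p = 0.1 (two-sided), so none is given. The fits were tried on simulated counts with a dispersion (spread between replicates) of 0.05, against a common dispersion of 0.843 in these data. That trial does not show how the fits perform on data this variable. Alternatives were DESeq2 1.42.0, limma 3.58.1 (voom), other scalings and filters, each library left out, and a replicate block. Log2 CPM for profiles used a prior count of 2.

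The 6 members and the 10 pathway and 11 marker lists were chosen with earlier results of these data known. Named genes are the members, up to 3 called genes per pathway list (or the 2 most abundant), the 2 marker genes per list highest in skin, and the 3 nearest profiles with an average log2 CPM of at least 4. Genes named to show a 0 count and locus neighbors were chosen after their values were seen. The same held for Foxp3, Prdm1, Irf4, Ets1, Il1rl1, Igf1, Il10rb, Nrp1, Rora, Cpe and Oprm1. It also held for Egfr, Hbegf, Xcr1, Flt3, Krt10, Krt5, Trp63, Perp, Dpt, Cd163 and Mrc1. A few genes selected this way are left out here. Positions and exon lengths were looked up by symbol in GENCODE M21 (assembly GRCm38, the same as mm10), which matched 22839 genes.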

Additional observations from a re-analysis of the deposited data

How the results depend on the processing

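Directions of the 5 tested genes held under all 12 alternatives, and Penk passed the threshold in none. The count of called genes was 881 as reported, 315 with no low-count filter, 1425 with the stricter filter (50 counts in 2 libraries), 3351 by DESeq2, 2231 by limma-voom and 0 to 6065 with 1 library left out. The count of called members was 3 as reported, 1 with no low-count filter and 0 to 4 with 1 library left out. With no low-count filter Areg (log2 fold change 7.87, edgeR adjusted p = 0.0716) and Fgl2 (2.54, adjusted p = 0.0532) did not pass. Ebi3 passed with the stricter filter (1.90, adjusted p = 0.0496), by DESeq2 (1.92) and by limma-voom (1.88). With 1 library left out, log2 fold changes ranged from 1.51 to 2.17 for Ebi3, from 4.69 to 5.76 for Il10, from 7.43 to 9.55 for Areg and from 1.99 to 2.94 for Fgl2. A lone skin library is there assumed to vary like the other group. The replicate block, which uses the titles' shared numbers, called 21 genes and 0 members, at log2 fold changes of 4.89 for Il10, 9.60 for Areg and 2.38 for Fgl2. Same-numbered libraries did not deviate together (correlation -0.0252 for number 1 and -0.0236 for number 2, across genes). With 2 skin libraries the skin deviations mirror each other, so these are not separate checks. Whether same-numbered libraries share an animal or a batch cannot be told from them. Of other named genes, Adam10 reversed by limma-voom (-0.31), under the replicate block (-0.35) and without skin replicate 2 (-1.61). With 1 library left out, log2 fold changes ranged from -1.61 to 1.02 for Adam10, from -0.022 to 1.37 for Il10ra and from -10.3 to 0.044 for Kit, whose signs reversed without skin replicate 2, 1 and 2 in that order. The cause was not tested. In the skin libraries, abundant lymph node genes near 0 limit what a low skin value shows.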
